A study of Mus musculus with 15 samples.

Results

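The comparison described here sets 3 D-gel@GSNP libraries against 3 D-gel@NP libraries, 6 of the 15 RNA-sequencing libraries of a study on GL261, a mouse glioma cell line. They were chosen because, per the labels, both groups had the hydrogel of the D kind (the labels call the gels chiral) and the same cytokine cocktail and differed in the load of the gel. GSNP and NP are code names that the labels leave unexplained, as they do the make-up of the cocktail. All 34259 genes of the count table were considered, and 17497 had counts high enough to be tested. In both groups wild-type cells labelled Hoechst-CD133+ (cells that exclude the dye Hoechst and carry CD133, the product of Prom1) were taken up in lyophilised gel for 20 min on ice. They were then kept in medium with cytokines until day 6, with new medium on days 2 and 4. The other 9 libraries were 3 of L-gel@GSNP, the same load code in the gel of the L kind, 3 of PBS, Hoechst-CD133+ cells with cytokines and buffer but no gel and no ice step named, and 3 of untreated non-SP cells, the cells outside the dye-excluding side population. With GSNP and with NP stand below for the D-gel@GSNP and D-gel@NP libraries alone. No gel without a load was sequenced among the samples used here. All 15 libraries carry 1 batch label, and nothing in the labels says that the replicates of a group came from separate cultures, so p-values measure only the spread between these samples, which may be technical.

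Side-population and CD133-positive glioma cells are studied as a stem-like, drug-tolerant and often slowly cycling fraction of a tumour. Whether such cells cycle is read from the genes of DNA replication and mitosis, which the E2F factors and the MuvB complexes switch on, and from the brakes that p53 switches on. The integrated stress response, whose effector is the transcription factor ATF4, marks cells short of amino acids or under stress in the endoplasmic reticulum, and interferon and NF-kB genes mark inflammatory signalling.

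Total counts were 44811952, 54977290 and 44493331 for D-gel@GSNP and 16626413, 38706152 and 40015227 for D-gel@NP. D-gel@NP 1 is the shallowest of the 15 libraries, which reach up to 98102794 counts. Distances between libraries (Euclidean, on log2 values of the tested genes) were 65.1 to 69.0 among the D-gel@GSNP libraries and 68.5 to 93.4 among those of D-gel@NP. Between the groups they were 128.7 to 145.9. The D-gel@GSNP libraries lay nearly as close to the untreated non-SP libraries (67.6 to 73.9) as to each other, although the labels give these groups different sorts, gels and cytokines. Each D-gel@NP library lay nearer to L-gel@GSNP (73.4 to 100.7) and to PBS (83.5 to 110.2) than to D-gel@GSNP. A D-gel@GSNP library that held non-SP material, or carried a wrong label, cannot be told apart from an effect of the load with these files, and that holds for every difference below. Prom1 itself was at 0, 0.0375 and 0.138 CPM in D-gel@GSNP and at 0.119, 0.101 and 0.1 CPM in D-gel@NP, too low to test. CPM (the usual unit of counts relative to library size) were computed with scaled library sizes. In bulk RNA, fewer cells of a type and less RNA per cell cannot be told apart.

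Of the 17497 tested genes, 10214 (58.4%) differed between the loads at a Benjamini-Hochberg adjusted p under 0.05 in edgeR's quasi-likelihood test. Of these, 5031 (28.8% of the tested genes) were higher and 5183 (29.6%) lower in D-gel@GSNP. At 2-fold or more, 787 genes (4.5%) were higher and 2114 (12.1%) lower, and at 8-fold or more 37 were higher and 394 lower. The median log2 difference was -0.037, with quartiles at -0.568 and 0.396. In 10943 genes (62.5%) the 3 values of one group all lay above the 3 of the other. With 58.4% of all genes called, a count of called genes is read against these shares in each gene group below. With upper-quartile scaling in place of TMM factors, 3961 genes were called higher and 6303 lower, so that 38.6% of calls in place of 49.3% were rises, and the median log2 difference moved to -0.157.

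The direction went with the level and kind of gene. Among genes with a mean of at least 100 CPM, 50.8% were higher and 30.4% lower in D-gel@GSNP. Among those under 1 CPM, 5.6% were higher and 22.5% lower. The excess of 2-fold falls was in the low genes: under 1 CPM 245 genes were at least 2-fold higher and 1028 lower, and from 1 to 10 CPM 186 and 646. From 10 to 100 CPM there were 271 and 358, and at 100 CPM or more 85 and 82. Protein-coding genes were divided about evenly, with 35.0% higher and 32.8% lower. Long non-coding RNAs were not, with 7.8% higher and 27.5% lower. These shares lie near those of genes under 1 CPM, and whether kind mattered apart from level was not tested.

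**Figure D1:**
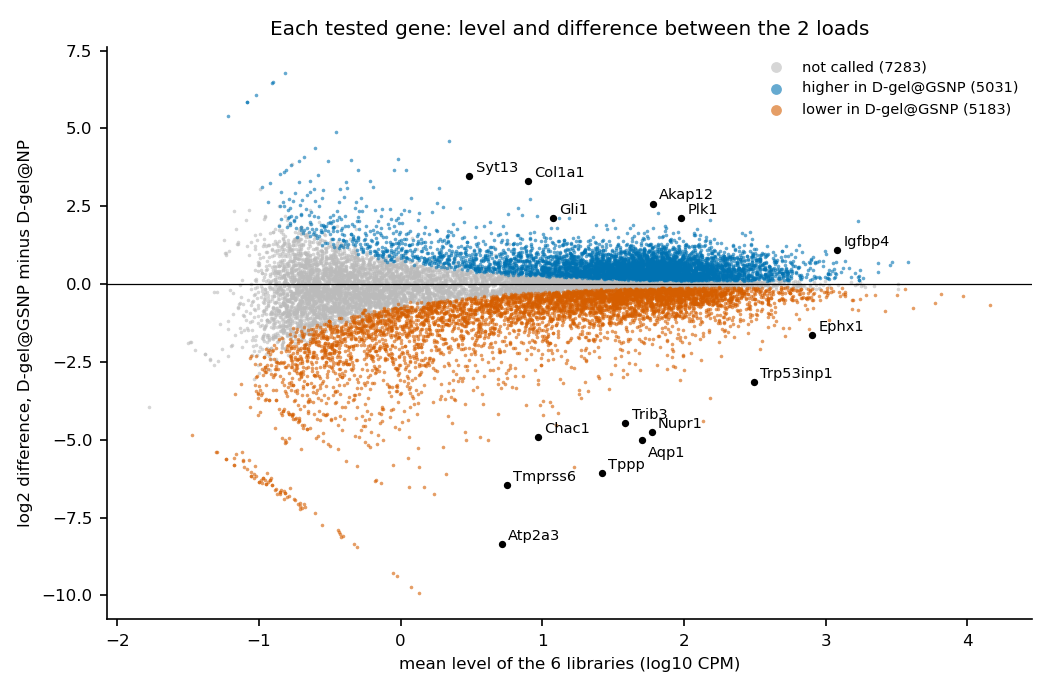
Log2 difference (D-gel@GSNP minus D-gel@NP, y axis) of each tested gene against its mean level (log10 CPM, x axis), with called genes in blue (5031 higher) and orange (5183 lower) and named genes in black. The deepest falls reach further from 0 than the largest rises, and the streaks of points at low levels are genes without counts in 1 group, whose fitted difference depends on the prior count.

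Genes of mitosis were higher in D-gel@GSNP. Of 24 tested genes of G2 and mitosis, 23 rose and 0 fell, with a median log2 difference of 1.03 against -0.037 for all genes; 14 rose by 2-fold or more. The exception was Nusap1, a spindle protein (log2 -0.01). Plk1, the kinase that drives entry into and passage through mitosis, stood at 164, 156 and 144 CPM in D-gel@GSNP and 37.3, 35.6 and 35.1 CPM in D-gel@NP. All 3 GSNP values lay far above the NP values, and the difference was 4.31-fold (log2 2.11, SE 0.07, edgeR adjusted p = 5.8e-16). Ccnb1, the cyclin that activates Cdk1, had 348, 334 and 347 CPM with GSNP and 150, 141 and 157 CPM with NP. The groups again did not overlap (log2 1.198, SE 0.07, edgeR adjusted p = 9.6e-13). Aurka, the spindle pole kinase, had 185, 177 and 169.8 CPM in D-gel@GSNP and 60.1, 60.3 and 59.4 CPM in D-gel@NP (log2 1.56, SE 0.06, edgeR adjusted p = 3.2e-15). Aurkb, the kinase of the chromosomal passenger complex, had 119.6, 111 and 105 CPM with GSNP and 39.4, 38.5 and 34.1 CPM with NP (log2 1.59, SE 0.07, edgeR adjusted p = 1.6e-14). For both kinases the lowest GSNP value was above the highest NP value. Foxm1, the transcription factor of the late cell cycle, was at 226, 215 and 218 CPM in D-gel@GSNP and 79.3, 90.8 and 80.6 CPM in D-gel@NP (log2 1.39, SE 0.08, edgeR adjusted p = 8.4e-13). Mki67, the usual proliferation marker, had 559, 529 and 629 CPM with GSNP and 284, 286 and 277 CPM with NP, with its highest value in D-gel@GSNP 3 and no overlap (log2 1.02, SE 0.06, edgeR adjusted p = 6.5e-12). The other members named by their size were Cenpa (log2 1.38), Cdc20 (log2 1.32), Cdc25c (log2 1.29), Kif23 (log2 1.22), Birc5 (log2 1.15), Bub1b (log2 1.11), Kif20a (log2 1.04) and Tpx2 (log2 1.01).

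Many mitotic promoters hold 2 elements, the CHR and CCAAT boxes, through which the MuvB complexes and NF-Y act. The CHR letters TTTGAA were found, on either strand, in 13 of the 19 mitotic genes with a RefSeq promoter (68.4%; 250 bases before to 50 after the start), against 12.9% of 11154 tested genes and 18.1% of all 27025 genes with one. CCAAT was found in 17 of the 19 (89.5%), against 38.9% and 37.9%. Among all genes called higher and all called lower the shares were 13.1% and 12.6% for TTTGAA and 39.0% and 40.1% for CCAAT. Plk1, the member with the lowest adjusted p, is printed because its letters hold both boxes. The first stretch is the 250 bases before the start (chr7:122159185-122159434, GRCm38.p6, plus strand), with the CCAAT box in capitals 14 bases before the start site. The second is the 30 bases around the CHR (chr7:122159453-122159482), whose capitals begin 30 bases after it. A match is a description of letters, not of a bound site.
Plk1 upstream: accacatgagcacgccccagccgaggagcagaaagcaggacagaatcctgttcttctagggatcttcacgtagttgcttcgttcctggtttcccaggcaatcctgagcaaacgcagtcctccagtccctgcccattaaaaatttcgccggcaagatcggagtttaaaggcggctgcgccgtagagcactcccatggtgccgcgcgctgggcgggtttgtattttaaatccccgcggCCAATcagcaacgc
Plk1 CHR: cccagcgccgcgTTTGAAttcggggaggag

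Genes of S phase were mostly higher too. Of 26 DNA replication genes, 24 rose and 0 fell (median log2 0.72), and 13 of 21 G1 to S regulators rose while 6 fell (median 0.38). The 2 replication genes not called were Gins4 and Pola1. Mcm2, a subunit of the replicative helicase, had 422, 402 and 402 CPM in D-gel@GSNP and 229.5, 223 and 232 CPM in D-gel@NP (log2 0.84, SE 0.05, edgeR adjusted p = 6.6e-12). Rrm2, the regulated subunit of ribonucleotide reductase, had 456, 427 and 436 CPM with GSNP and 206, 197 and 197 CPM with NP (log2 1.14, SE 0.07, edgeR adjusted p = 1.5e-12). In both genes every GSNP library was above every NP library. Gins2, another part of the helicase, was at 61.2, 55.8 and 57.8 CPM in D-gel@GSNP and 23.8, 24.3 and 26.5 CPM in D-gel@NP. Lig1 and Pold1, the ligase and the polymerase that finish the lagging strand, rose by log2 1.02 and log2 1.03. Among regulators, E2f8 and E2f7, atypical E2F repressors that are themselves E2F targets, moved most. E2f8 had 123, 111 and 111 CPM with GSNP and 29.3, 32.99 and 31 CPM with NP, without overlap (log2 1.88, SE 0.08, edgeR adjusted p = 4.7e-15). E2f7 had 67.7, 63.5 and 64.3 CPM in D-gel@GSNP and 18.8, 19.7 and 17.1 CPM in D-gel@NP (log2 1.81, SE 0.09, edgeR adjusted p = 3.2e-13). Ccne1, the cyclin of S-phase entry, had 55.2, 47.9 and 48.8 CPM with GSNP and 16.9, 18.6 and 18.02 CPM with NP (log2 1.498, SE 0.10, edgeR adjusted p = 9.8e-12). Ccna2, the cyclin of S phase and G2, rose as well (log2 1.23). The falls were in the brakes Cdkn1a, Cdkn1b, Cdkn2b, Rb1 and Rbl2 and in the G1 cyclin Ccnd1 (log2 -0.27). Cdkn2b, an inhibitor of Cdk4 and Cdk6, had 12.3, 14.2 and 14.6 CPM in D-gel@GSNP and 36.6, 37.4 and 37.7 CPM in D-gel@NP, so that here the NP libraries were the high ones (log2 -1.44, SE 0.09, edgeR adjusted p = 3.9e-12). In DNA repair 18 of 24 genes rose and 1, Atr, fell (median log2 0.39). Parp1, a sensor of strand breaks, led with 403, 400.4 and 394 CPM with GSNP and 213, 230 and 203 CPM with NP (log2 0.89, SE 0.06, edgeR adjusted p = 8.5e-12). Exo1, Xrcc6 and Msh6 rose by log2 0.75, log2 0.60 and log2 0.56.

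E2F letters (TTTGGCGC or TTTCCCGC, either strand) were found in 10 of 21 replication genes with a promoter (47.6%), against 2.9% of tested genes and 1.6% of all. They were in 4.4% of genes called higher, 2.0% of those called lower and 2.3% of those not called. The 30 bases of Pold1 that hold the match are printed because Pold1 has the lowest adjusted p among the members with these letters (chr7:44548766-44548795, GRCm38.p6, minus strand). The capitals are TTTCCCGC read on the other strand and begin 39 bases after the start.
Pold1: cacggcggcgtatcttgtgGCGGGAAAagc

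Histone genes went the other way. Canonical histone genes are copied in S phase into mRNAs without a poly(A) tail. Of 10 tested, 0 rose and 9 fell, by 2-fold or more each, with a median log2 difference of -2.93; a further 4 were too low to test. Hist1h1c, a linker histone gene, had 19.8, 20.9 and 19.2 CPM in D-gel@GSNP and 146, 118 and 129 CPM in D-gel@NP. The NP libraries were all above the GSNP libraries, and the level was 6.55-fold lower with GSNP (log2 -2.71, SE 0.10, edgeR adjusted p = 2.4e-15). Hist1h1d had 1.02, 0.618 and 1.33 CPM with GSNP and 13.5, 15.03 and 14.3 CPM with NP (log2 -3.87, SE 0.20, edgeR adjusted p = 1.8e-13). Hist1h2bc, a core histone gene, had 3.05, 3.05 and 2.53 CPM in D-gel@GSNP and 23.7, 24.8 and 23.1 CPM in D-gel@NP (log2 -3.05, SE 0.13, edgeR adjusted p = 1e-14). In both the groups were without overlap. Hist1h3b was near the limit of counting, with 0.0466, 0 and 0.02297 CPM with GSNP and 0.119, 0.7602 and 0.225 CPM with NP, and its fitted log2 difference of -4.01 was -4.90 without D-gel@GSNP 1, -3.40 without D-gel@GSNP 2 and -2.94 without D-gel@NP 2. The call of Hist1h4d (log2 -1.50) was lost without D-gel@GSNP 1, without D-gel@GSNP 3 or without D-gel@NP 2. The summed level of the list was 25.5 to 27.78 CPM in D-gel@GSNP and 173.9 to 196.8 CPM in D-gel@NP, most of it Hist1h1c. The labels do not say whether poly(A) RNA was selected. Whether these counts follow the histone mRNA made in S phase was not tested.

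Targets of p53 were lower in D-gel@GSNP. Of 24 tested, 2 rose and 19 fell (median log2 -0.92), 10 of them by 2-fold or more. Cdkn1a, the gene of the kinase inhibitor p21, had 135, 141 and 131 CPM in D-gel@GSNP and 353, 365 and 320.3 CPM in D-gel@NP. The groups were far apart (2.55-fold lower with GSNP, log2 -1.35, SE 0.06, edgeR adjusted p = 8.4e-15). Trp53inp1, a p53-induced gene that promotes autophagy and cell death, showed the largest fall of the list, from 514, 594 and 562 CPM in D-gel@NP to 57.5, 64.8 and 65.3 CPM in D-gel@GSNP. That is 8.896-fold lower (log2 -3.15, SE 0.07, edgeR adjusted p = 9.5e-20). Btg2, an antiproliferative gene, had 23.9, 29.99 and 24.01 CPM with GSNP and 119.7, 139.9 and 115 CPM with NP (log2 -2.27, SE 0.09, edgeR adjusted p = 2.2e-15). Fas, the death receptor, had 2.701, 3.24 and 3.61 CPM in D-gel@GSNP and 14.1, 16.7 and 18.2 CPM in D-gel@NP (log2 -2.37, SE 0.12, edgeR adjusted p = 3.2e-13). Neither overlapped between groups. Ddit4, an inhibitor of mTORC1 that p53, hypoxia and ATF4 all induce, was at 27.9, 37.5 and 32.7 CPM with GSNP and 168, 164 and 159 CPM with NP (log2 -2.32, SE 0.10, edgeR adjusted p = 1.6e-14). Gdf15, a secreted stress cytokine, was at 22.8, 23.6 and 19.99 CPM in D-gel@GSNP and 73.4, 87.4 and 79.7 CPM in D-gel@NP (log2 -1.86, SE 0.08, edgeR adjusted p = 1.7e-14). Sesn1 and Eda2r fell by 1.17 and 1.59 on the log2 scale. Both members that rose, Tigar (log2 0.41) and Gtse1 (log2 0.19), are named because the count is small; Tigar lowers glycolytic flux and Gtse1 is itself a gene of G2 that restrains p53. In the BCL2 family 4 of 13 rose and 6 fell (median log2 -0.12). The falls included the BH3-only killers Bmf, Bcl2l11 and Pmaip1, and the rises included the effectors Bak1 and Bok, while Bax, another effector, fell (log2 -0.41). Bak1 had 83.98, 75.4 and 77.1 CPM with GSNP and 37.1, 31.7 and 31.1 CPM with NP (log2 1.25, SE 0.07, edgeR adjusted p = 3.8e-13). Bmf had 1.23, 0.805 and 0.827 CPM in D-gel@GSNP and 5.902, 5.55 and 5.75 CPM in D-gel@NP (log2 -2.59, SE 0.19, edgeR adjusted p = 1.1e-10).

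Among the 43 pathway lists, markers of other cell types left out, the targets of ATF4 had the lowest median after the histone genes. Of 21 tested, 1 rose and 19 fell, 15 by 2-fold or more (median log2 -1.35). Trib3, a pseudokinase that dampens ATF4 itself, had 2.54, 3.77 and 3.54 CPM with GSNP and 89.2, 57.6 and 75.1 CPM with NP. The lowest NP value was far above the highest GSNP value (22.3-fold lower, log2 -4.48, SE 0.18, edgeR adjusted p = 3.6e-15). Chac1, which breaks down glutathione, had 0.512, 0.712 and 0.551 CPM in D-gel@GSNP and 21.6, 15.4 and 17.3 CPM in D-gel@NP (log2 -4.90, SE 0.29, edgeR adjusted p = 3.2e-12). Nupr1, a stress-induced chromatin protein, had 4.35, 3.56 and 4.76 CPM with GSNP and 111, 109.6 and 121 CPM with NP (log2 -4.76, SE 0.09, edgeR adjusted p = 7.6e-20). Asns, the asparagine synthetase used as a readout of amino acid shortage, had 95.9, 88.7 and 94.7 CPM in D-gel@GSNP and 305, 272 and 306 CPM in D-gel@NP. The NP libraries were again all higher (log2 -1.66, SE 0.06, edgeR adjusted p = 4.9e-16). Psph, of serine synthesis, Mthfd2, of mitochondrial one-carbon metabolism, and Aldh18a1, of proline synthesis, fell by 1.75, 1.67 and 1.35 on the log2 scale. The factors themselves were lower too. Atf4 had 161, 157 and 149.8 CPM with GSNP and 365, 309 and 344 CPM with NP (log2 -1.12, SE 0.05, edgeR adjusted p = 7.3e-14). Ddit3, the proapoptotic factor CHOP, had 10.2, 10.1 and 10.2 CPM in D-gel@GSNP and 40.4, 31.9 and 34.2 CPM in D-gel@NP (log2 -1.79, SE 0.10, edgeR adjusted p = 7.2e-13), and Atf3 had a log2 difference of -2.57. The exceptions were Slc7a5, the leucine importer, which rose (log2 0.38), and Shmt2, a serine hydroxymethyltransferase, which was not called (log2 -0.01).

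A composite of the ATF4 and CEBP sites, TGATGCAA on either strand, was found in 5 of 20 promoters of the list (25%: Atf3, Chac1, Nupr1, Pycr1 and Slc7a11), against 0.7% of tested genes and 0.9% of all genes. It was in 1.1% of genes called lower, 0.4% of those called higher and 0.7% of those not called. The 250 bases before the start of Nupr1 are printed because it has the lowest adjusted p among those 5 (chr7:126625471-126625720, GRCm38.p6, minus strand). The capitals are the match read on the other strand and begin 110 bases before the start.
Nupr1: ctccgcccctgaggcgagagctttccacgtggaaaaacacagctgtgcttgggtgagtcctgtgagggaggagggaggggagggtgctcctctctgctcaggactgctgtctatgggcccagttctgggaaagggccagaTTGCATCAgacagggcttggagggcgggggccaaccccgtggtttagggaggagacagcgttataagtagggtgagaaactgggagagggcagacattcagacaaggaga

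Amino acid supply and protein folding genes moved with ATF4 in part. Of 18 aminoacyl-tRNA synthetases, which charge tRNAs and are in part ATF4 targets, 4 rose and 14 fell (median log2 -0.34). Cars, for cysteine, fell most, with 78, 72.1 and 76.1 CPM with GSNP and 188, 177 and 185 CPM with NP (log2 -1.28, SE 0.05, edgeR adjusted p = 9.5e-15). Nars, for asparagine, fell by 1.07 on the log2 scale. Vars, for valine, rose most, with 308, 319.5 and 312 CPM in D-gel@GSNP and 129, 133 and 135 CPM in D-gel@NP (log2 1.24, SE 0.07, edgeR adjusted p = 3.6e-13), and the other rises were Hars, Kars and Qars. The groups did not overlap for 18 of the 18, against 62.5% of all genes. Of 12 amino acid transporters 2 rose and 8 fell (median -0.53). Slc6a9, the glycine transporter GlyT1, had 2.44, 2.96 and 2.895 CPM with GSNP and 25.3, 26.1 and 23.9 CPM with NP (log2 -3.18, SE 0.12, edgeR adjusted p = 2.8e-15). Slc38a2, a glutamine and alanine importer that starvation induces, had 1104, 1139 and 1090 CPM in D-gel@GSNP and 1862, 1956 and 2003 CPM in D-gel@NP (log2 -0.80, SE 0.04, edgeR adjusted p = 6.7e-13). Chaperones of the endoplasmic reticulum, 17 tested, had 3 rises and 8 falls and a median of -0.04, about that of all genes. The falls of 2-fold or more were in Xbp1, the factor of the unfolded protein response, Dnajb9 and Herpud1. Xbp1 had 40.4, 44.9 and 37.2 CPM with GSNP and 142, 132 and 137 CPM with NP (log2 -1.74, SE 0.06, edgeR adjusted p = 8.4e-16). Hspa5, the main chaperone of the compartment, had a log2 difference of -0.45. The median absolute log2 difference of all tested genes was 0.47.

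Genes that build ribosomes and proteasomes were higher in D-gel@GSNP than in D-gel@NP. Of 25 ribosome biogenesis genes 21 rose and 0 fell (median log2 0.65). Polr1b, a core subunit of RNA polymerase I, had 69.3, 73.7 and 68.1 CPM in D-gel@GSNP and 30.2, 31.2 and 27.7 CPM in D-gel@NP (log2 1.25, SE 0.07, edgeR adjusted p = 1.5e-12). Mybbp1a, a nucleolar protein of rRNA processing, had 749, 735 and 715 CPM with GSNP and 335, 307 and 292 CPM with NP, and its groups stood 2.36-fold apart. Noc2l and Polr1a rose by log2 1.05 and log2 0.91. Cytosolic ribosomal protein genes did not share this direction: 3 of 25 rose, 13 fell and the median was -0.17. Rpl23 fell most, with 518, 497 and 494 CPM in D-gel@GSNP and 796, 682 and 753 CPM in D-gel@NP (log2 -0.56, SE 0.06, edgeR adjusted p = 3.4e-08). Rps2 rose most, with 3365, 3479 and 3380 CPM with GSNP and 2377, 2119 and 2245 CPM with NP (log2 0.60, SE 0.05, edgeR adjusted p = 1.6e-10). Ribosomal protein genes have many processed pseudogenes, and how the authors' counting divided reads among them is not given in the sources used here. Of 22 proteasome subunits 21 rose and 0 fell, all by less than 2-fold (median 0.49). Psmb7, a catalytic subunit, had 109, 107 and 105 CPM in D-gel@GSNP and 63.1, 60.6 and 65.4 CPM in D-gel@NP (log2 0.76, SE 0.06, edgeR adjusted p = 8.6e-10). Psmd1, of the regulatory cap, had 354, 331 and 328 CPM with GSNP and 209, 214 and 222 CPM with NP. Of 13 heat shock genes 9 rose and 3 fell (median 0.34). Hspd1, the mitochondrial chaperonin, had 1721, 1703 and 1708 CPM in D-gel@GSNP and 1053, 978 and 1013 CPM in D-gel@NP (log2 0.75, SE 0.05, edgeR adjusted p = 8.2e-12). The cochaperone Bag3 rose most, with a log2 difference of 1.03.

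**Figure D2:**
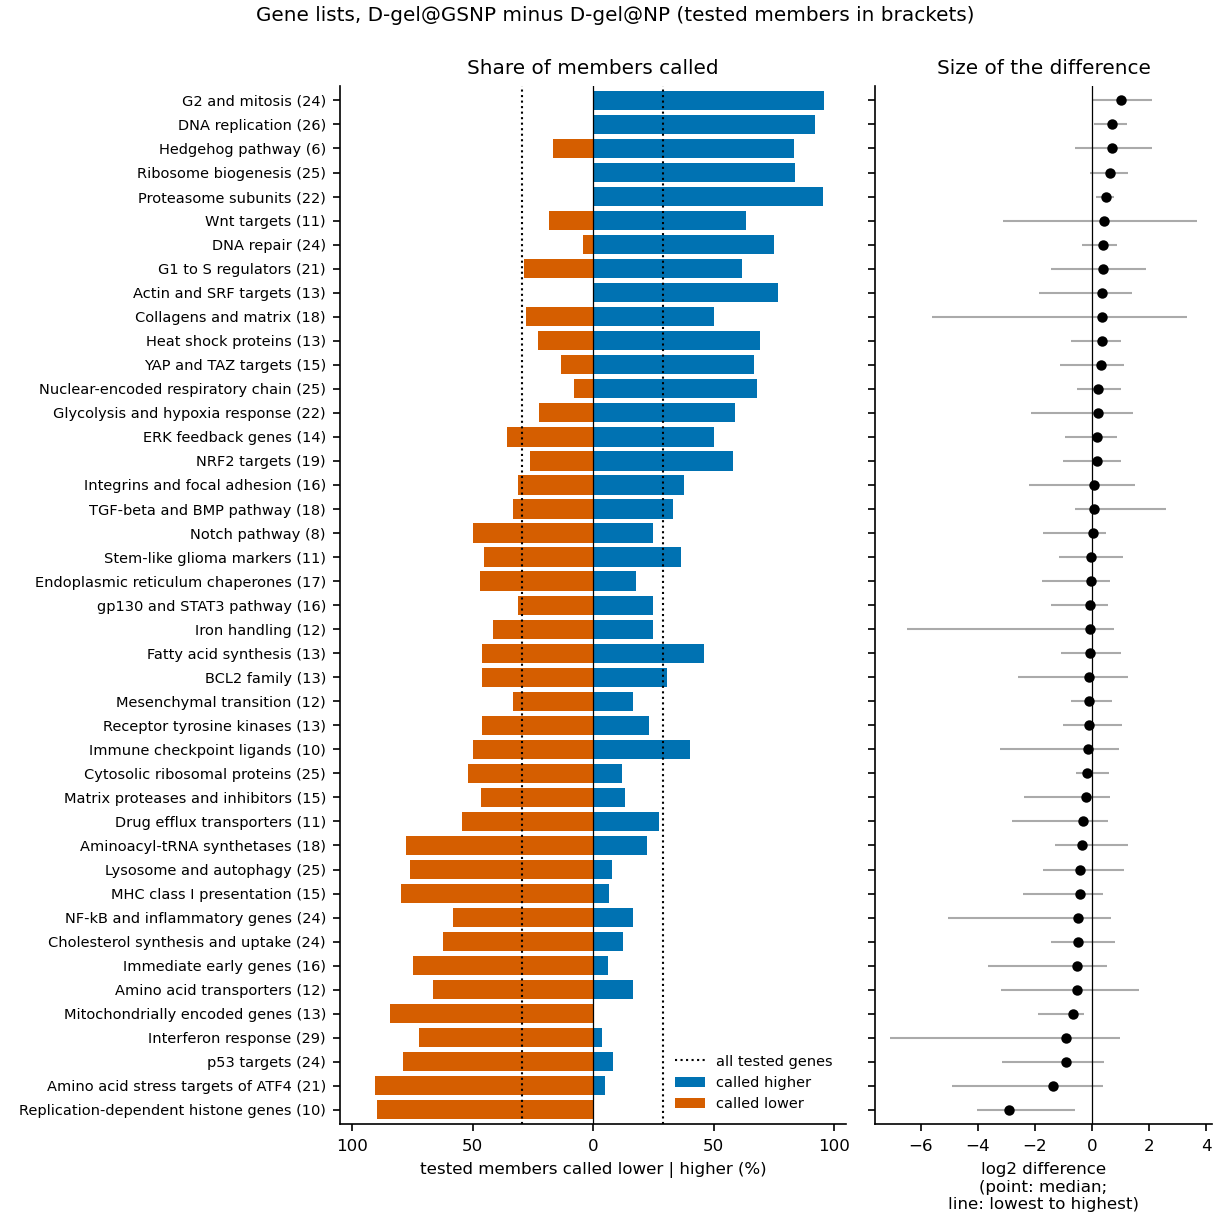
Left, share of the tested members of each gene list called higher (blue, to the right) or lower (orange, to the left) in D-gel@GSNP, with dotted lines at the shares of all tested genes (28.8% and 29.6%); right, median log2 difference (point) and range of members (line). Genes of mitosis, replication, the Hedgehog pathway, ribosome biogenesis and the proteasome fill the upper rows, and histone genes, ATF4 targets, p53 targets and interferon genes the lowest.

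Lysosomal genes were lower in D-gel@GSNP. Of 25 genes of lysosomes and autophagy 2 rose and 19 fell (median log2 -0.40). Ctsd, the main aspartic protease of the lysosome, had 106, 109 and 104 CPM with GSNP and 356, 339 and 347 CPM with NP. Its groups were far apart (3.26-fold lower, log2 -1.71, SE 0.05, edgeR adjusted p = 9.4e-17). Sqstm1, the autophagy receptor p62, had 317, 294 and 289 CPM in D-gel@GSNP and 804, 767 and 813 CPM in D-gel@NP (log2 -1.41, SE 0.04, edgeR adjusted p = 1.1e-16). Gabarapl1 and Map1lc3b, which coat autophagosomes, fell by 1.57 and 1.06 on the log2 scale. Tfeb, the factor that switches lysosomal genes on, was one of the 2 that rose, with 21.3, 22.1 and 21.3 CPM with GSNP and 9.66, 10.3 and 9.75 CPM with NP (log2 1.12, SE 0.08, edgeR adjusted p = 8.5e-11); the other was Ctsz (log2 0.45). The CLEAR core TCACGTGA, the element TFEB binds, which contains the E-box CACGTG and reads the same on both strands, was in 4 of 19 promoters of the list (21.1%), against 1.8% of tested genes and 1.0% of all. It was in 1.7% of genes called higher and 2.1% of those called lower. Ctsd is printed as the holder with the lowest adjusted p, over the 250 bases before its start (chr7:142387828-142388077, GRCm38.p6, minus strand), with the core in capitals 99 bases before the start.
Ctsd: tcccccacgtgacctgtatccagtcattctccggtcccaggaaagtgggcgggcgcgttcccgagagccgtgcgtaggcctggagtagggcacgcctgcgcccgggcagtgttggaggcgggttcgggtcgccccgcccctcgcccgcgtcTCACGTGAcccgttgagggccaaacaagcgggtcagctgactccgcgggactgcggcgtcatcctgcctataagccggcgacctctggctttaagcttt

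Sterol synthesis was lower too. Of 24 genes of cholesterol synthesis and uptake, 3 rose and 15 fell (median log2 -0.50). Msmo1, an enzyme of the late pathway, had 48.9, 49.3 and 47.5 CPM in D-gel@GSNP and 128, 142 and 127 CPM in D-gel@NP (log2 -1.45, SE 0.06, edgeR adjusted p = 1.6e-14). Hmgcs1, which makes the precursor of mevalonate, had 61.5, 60.3 and 63.4 CPM with GSNP and 129, 143 and 123 CPM with NP (log2 -1.09, SE 0.07, edgeR adjusted p = 3.8e-12). Insig1, which holds the sterol response in check, and Fdft1, squalene synthase, fell by 1.29 and 1.23 on the log2 scale. Mvk, mevalonate kinase, was among the genes that rose (log2 0.80). Fatty acid synthesis was divided, with 6 of 13 rising and 6 falling (median -0.08). Acaca, acetyl-CoA carboxylase, had 127, 129.9 and 128 CPM in D-gel@GSNP and 65.5, 71.4 and 68.2 CPM in D-gel@NP (log2 0.91, SE 0.08, edgeR adjusted p = 1.3e-09). Scd1, the stearoyl-CoA desaturase, had 311, 313 and 295 CPM with GSNP and 560.3, 602 and 541 CPM with NP (log2 -0.89, SE 0.05, edgeR adjusted p = 1.8e-12). The former was higher and the latter lower in every GSNP library. A sterol response element of the letters TCACNCCAC was in 1 of 16 promoters, that of Hmgcs1 (6.2%), against 1.1% of tested genes.

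The nuclear and mitochondrial genes of the respiratory chain were opposed. Of 25 nuclear-encoded subunits 17 rose and 2 fell (median log2 0.23), and of 13 mitochondrially encoded genes 0 rose and 11 fell (median -0.66). Uqcrc1, a core subunit of complex III, had 178, 175 and 171 CPM in D-gel@GSNP and 88.4, 84.4 and 85.8 CPM in D-gel@NP (log2 1.02, SE 0.05, edgeR adjusted p = 4.8e-13). Atp5a1, of the ATP synthase, had 1061, 1035 and 1023 CPM with GSNP and 648, 629 and 638 CPM with NP (log2 0.70, SE 0.04, edgeR adjusted p = 1.4e-12). By contrast mt-Nd4, of complex I, had 2120, 1719 and 1682 CPM in D-gel@GSNP and 3380, 3192 and 3534 CPM in D-gel@NP (log2 -0.87, SE 0.07, edgeR adjusted p = 4.7e-10). The other mitochondrial genes that fell had log2 differences from -1.90 (mt-Atp8) to -0.27 (mt-Nd6). Mitochondrially encoded genes took 3.37, 2.82 and 2.82% of all counts in D-gel@GSNP and 4.58, 4.47 and 4.84% in D-gel@NP. The groups did not overlap in this share, which is also read as a sign of RNA and cell quality, and its part in other differences was not tested. With these genes left out before scaling, 5102 genes were called higher and 5110 lower.

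In a joint list of 22 glycolysis and hypoxia genes, 13 rose and 5 fell (median log2 0.23). The rises numbered 7 with upper-quartile scaling and 8 without D-gel@NP 2. The 5 that fell, named after their values were seen, were Vegfa, Bnip3, Ankrd37, Ndrg1 and P4ha1. The list does not part hypoxia targets from glycolysis genes, so it gives no direction for hypoxia targets alone. Vegfa, the angiogenic growth factor, had 27.4, 36.5 and 28.7 CPM with GSNP and 153, 129 and 128 CPM with NP (log2 -2.14, SE 0.15, edgeR adjusted p = 3.8e-11). Eno1, enolase, had 1474, 1482 and 1395 CPM in D-gel@GSNP and 1135, 1066 and 1133 CPM in D-gel@NP (log2 0.38, SE 0.04, edgeR adjusted p = 3.7e-08). Gapdh was uneven among the NP libraries, with 487, 475 and 372 CPM with GSNP and 44.4, 86.3 and 356 CPM with NP. D-gel@NP 3 was close to the GSNP values, the call (log2 1.43, SE 0.58, edgeR adjusted p = 0.039) was lost in 9 of 17 other settings, and without D-gel@NP 3 the log2 difference was 2.72. Of 19 targets of NRF2, the factor of the antioxidant response, 11 rose and 5 fell (median 0.18). Me1, malic enzyme, had 411, 409 and 389.5 CPM in D-gel@GSNP and 182, 220 and 201 CPM in D-gel@NP (log2 1.00, SE 0.07, edgeR adjusted p = 6.3e-11), and Gsr, glutathione reductase, rose by log2 0.70. The cystine importer Slc7a11, shared with the ATF4 list, had 71.3, 75.4 and 80.5 CPM with GSNP and 156, 138 and 168 CPM with NP (log2 -1.02, SE 0.07, edgeR adjusted p = 2.7e-11). The antioxidant element TGACNNNGC was in 5 of 15 promoters (33.3%), against 14.9% of tested genes. Of 12 iron handling genes 3 rose and 5 fell (median -0.06). Fth1, the ferritin heavy chain, had 1413, 1375 and 1349 CPM in D-gel@GSNP and 891, 847 and 848 CPM in D-gel@NP (log2 0.68, SE 0.04, edgeR adjusted p = 4.8e-12). Tmprss6, the protease that restrains hepcidin, had 0.0931, 0.0749 and 0.207 CPM with GSNP and 12.3, 9.73 and 11.3 CPM with NP (log2 -6.47, SE 0.30, edgeR adjusted p = 5.4e-14). Cp, the ferroxidase ceruloplasmin, had 9.66, 8.45 and 10.9 CPM in D-gel@GSNP and 65.3, 60.9 and 68.9 CPM in D-gel@NP (log2 -2.75, SE 0.13, edgeR adjusted p = 9.5e-14).

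Interferon response genes were lower in D-gel@GSNP. Of 29 tested, 1 rose and 21 fell, 12 by 2-fold or more (median log2 -0.92). Gbp3, a guanylate-binding protein, had 409, 403 and 416 CPM with GSNP and 1080, 1147 and 1144 CPM with NP. The groups did not overlap (log2 -1.46, SE 0.04, edgeR adjusted p = 6.1e-17). Usp18, a feedback inhibitor of the interferon receptor, had 28.1, 27.5 and 25.6 CPM in D-gel@GSNP and 67.6, 70.9 and 68.5 CPM in D-gel@NP (log2 -1.35, SE 0.07, edgeR adjusted p = 4.4e-13). Mx1, an antiviral GTPase, had 0.279, 0.581 and 0.643 CPM with GSNP and 8.94, 9.58 and 9.12 CPM with NP (log2 -4.18, SE 0.21, edgeR adjusted p = 1.1e-13). In both the NP libraries were all the higher ones. Oas2 had no count in any D-gel@GSNP library and 0.775, 0.203 and 0.275 CPM in D-gel@NP, so its fitted difference is no measure of size. The gene that rose was Ifih1, the RNA sensor MDA5 (log2 0.99), whereas Ddx58, the sensor RIG-I, fell by 0.92 on the log2 scale. The call of Ifit3 rested on few counts and was lost in 11 of 15 other settings. The core GAAANNGAA of the interferon element, on either strand, was in 17 of 24 promoters (70.8%), against 7.2% of tested and 8.6% of all genes, and in 6.3% of genes called higher and 8.1% of those called lower. Gbp3 is printed as the member with the lowest adjusted p, over the 250 bases before its start (chr3:142559794-142560043, GRCm38.p6, plus strand). The capitals are the core read on the other strand and begin 44 bases before the start.
Gbp3: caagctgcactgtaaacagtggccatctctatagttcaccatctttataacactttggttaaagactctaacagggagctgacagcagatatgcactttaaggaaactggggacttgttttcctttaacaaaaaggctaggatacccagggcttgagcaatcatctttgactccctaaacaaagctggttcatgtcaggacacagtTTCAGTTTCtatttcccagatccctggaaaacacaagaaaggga

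Antigen presentation and inflammatory genes moved the same way. In the MHC class I pathway, which shows peptides to T cells, 1 of 15 genes rose and 12 fell (median log2 -0.43). B2m, the light chain, had 231, 217 and 217 CPM in D-gel@GSNP and 369.6, 348 and 366 CPM in D-gel@NP (log2 -0.70, SE 0.05, edgeR adjusted p = 9.9e-11), and Tapbp, tapasin, fell by 0.93 on the log2 scale. The immunoproteasome subunits Psmb8 and Psmb9 were low in both groups and fell by 2.09 and 2.42 on that scale. The heavy chain genes H2-K1 (log2 -0.14) and H2-D1 (log2 -0.10) were not called. They are related in sequence, and whether reads were divided between them was not tested. The NF-kB and inflammation list had 4 rises and 14 falls among its 24 genes (median -0.49). The chemokine Cxcl5 had 40.1, 42.3 and 40.1 CPM with GSNP and 235, 199 and 230.1 CPM with NP (log2 -2.44, SE 0.08, edgeR adjusted p = 3.1e-16). Cxcl1, another neutrophil chemokine, had 22.9, 24.4 and 19.6 CPM in D-gel@GSNP and 80.1, 84.7 and 81.5 CPM in D-gel@NP (log2 -1.88, SE 0.08, edgeR adjusted p = 4.7e-15). In both the NP libraries were all above the GSNP libraries. C3, the complement component, fell by 1.61 on the log2 scale. Among the 4 that rose were the subunits Nfkb1, Nfkb2 and Rela, by at most 0.68 on the log2 scale, and the fourth was Csf1. Markers of macrophages and microglia fell alongside: 7 of 9 tested fell and 0 rose (4 fell among genes with at least 1 CPM in 3 libraries), and their summed level was 12.66 to 13.76 CPM in D-gel@GSNP and 34.52 to 42.42 CPM in D-gel@NP. Csf1r, the receptor for CSF1, had 3.54, 2.47 and 2.34 CPM with GSNP and 15.02, 17.03 and 18.6 CPM with NP. Cd68, a lysosomal protein, had 7.33, 8.02 and 7.19 CPM in D-gel@GSNP and 13.7, 17.8 and 17.4 CPM in D-gel@NP. Fcer1g and P2ry12 of the same list did not follow. Fcer1g was low but higher with GSNP, at 0.326 to 0.574 CPM against 0.2 to 0.298 CPM with NP. P2ry12 was at 1.024 to 1.63 CPM with GSNP and 0.358 to 1.495 CPM with NP, with overlap. Ptprc, the pan-leukocyte marker, was at no more than 0.45 CPM and Tyrobp at no more than 0.119 CPM in any of the 6 libraries. The part of these markers in the immune lists was not tested. Of 16 immediate early genes 1 rose, Fosl1, and 12 fell (median -0.53). Fos had 3.28, 2.604 and 2.41 CPM with GSNP and 40.8, 36.4 and 27.2 CPM with NP (log2 -3.64, SE 0.17, edgeR adjusted p = 4.3e-14), and Fosb fell by 2.94 on the log2 scale. Among 10 immune checkpoint ligands 4 rose and 5 fell (median -0.14). Cd276, the ligand B7-H3, had 143, 138 and 129 CPM in D-gel@GSNP and 71.2, 76.9 and 67.3 CPM in D-gel@NP (log2 0.93, SE 0.06, edgeR adjusted p = 2.4e-11). Cd80, the ligand B7-1, had 2.23, 1.65 and 1.61 CPM with GSNP and 13.7, 20.1 and 16.4 CPM with NP (log2 -3.21, SE 0.15, edgeR adjusted p = 8e-14).

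**Figure D3:**
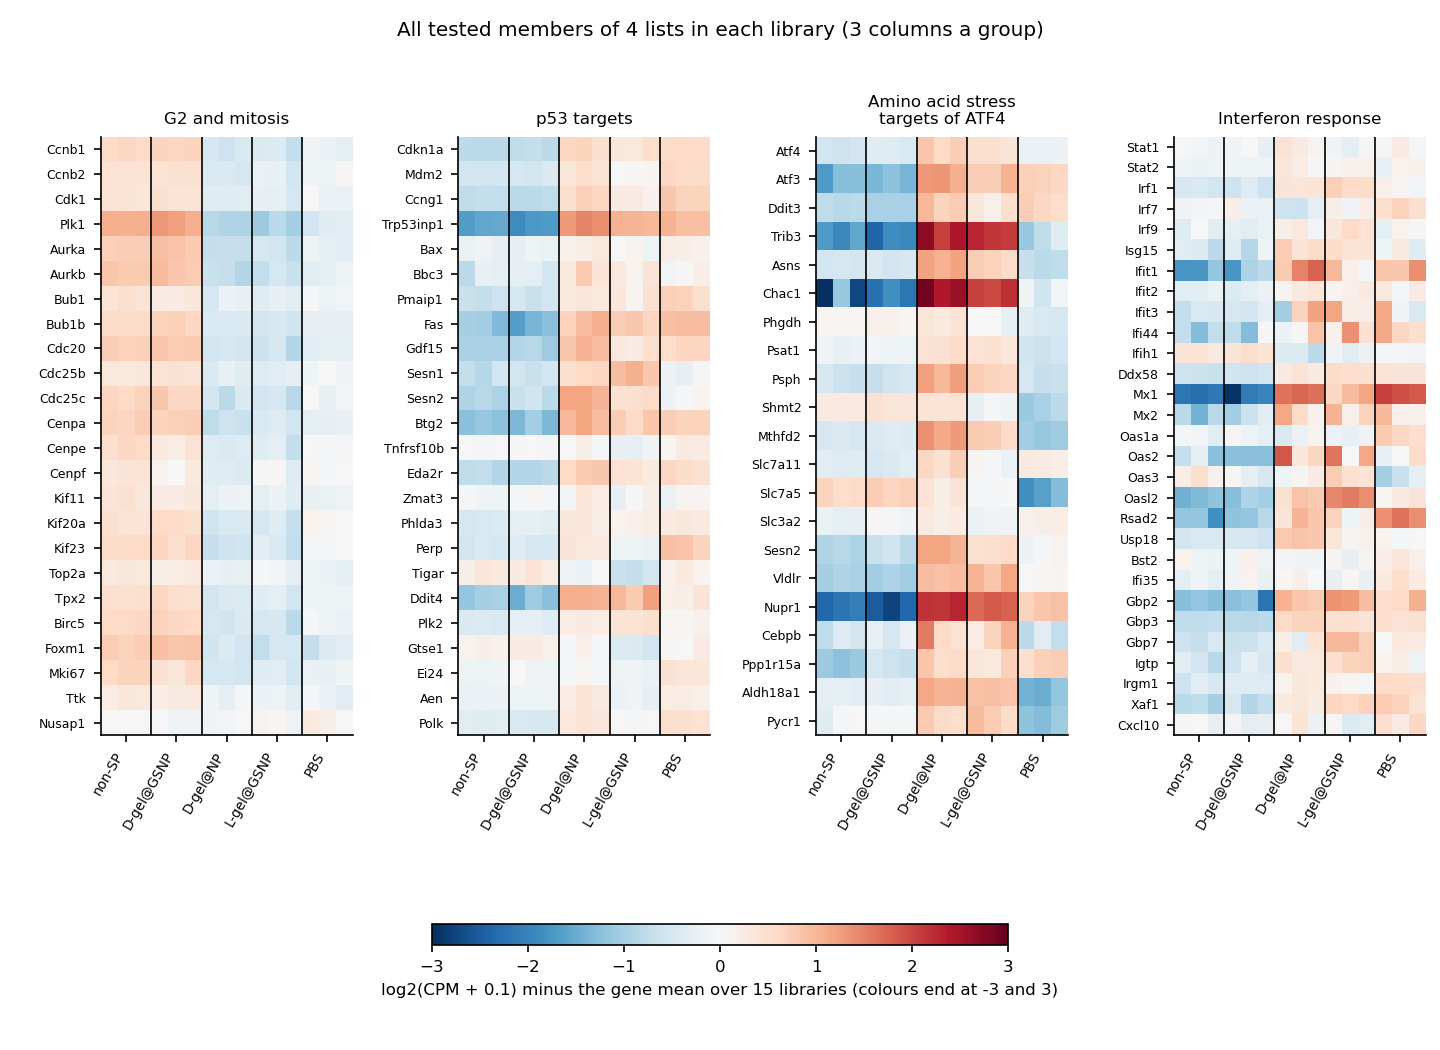
Log2(CPM + 0.1) of every tested member of 4 lists, minus the gene's mean over the 15 libraries (red above, blue below), with 3 columns for each group. The D-gel@GSNP columns resemble the non-SP columns beside them, and in the ATF4 panel the D-gel@NP columns are red and the PBS columns blue for Trib3, Asns, Mthfd2 and Aldh18a1.

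Growth signalling lists were mixed. Hedgehog genes, which in glioma are tied to stem-like growth, had 6 tested members, of which 5 rose and 1, the co-receptor Cdon, fell (median log2 0.69). Gli1, the effector and target of the pathway, had 18.9, 19.8 and 19.6 CPM in D-gel@GSNP and 3.94, 5.35 and 4.05 CPM in D-gel@NP (log2 2.11, SE 0.15, edgeR adjusted p = 3.4e-11). Smo, the signal transducer, had 129, 130 and 136 CPM with GSNP and 77.9, 79.7 and 79.99 CPM with NP (log2 0.73, SE 0.06, edgeR adjusted p = 2.6e-10). Ihh, a ligand, rose by log2 1.02. Neither overlapped between groups. Of 11 Wnt targets 7 rose and 2 fell (median 0.42). Nkd1, a feedback inhibitor, had 385, 376 and 352 CPM in D-gel@GSNP and 154, 159 and 154 CPM in D-gel@NP (log2 1.25, SE 0.06, edgeR adjusted p = 2.5e-13), and the transcription factor Tcf7 rose by log2 1.27. Bambi, a decoy receptor for TGF-beta, was the larger of the 2 falls, with 0.466, 0.524 and 0.597 CPM with GSNP and 4.17, 4.69 and 4.83 CPM with NP (log2 -3.11, SE 0.22, edgeR adjusted p = 4.7e-11). Of 15 YAP and TAZ targets 10 rose and 2 fell (median 0.33), with Tead4, the DNA-binding partner, at 49.4, 48.8 and 46.2 CPM in D-gel@GSNP and 21.7, 21.1 and 23.5 CPM in D-gel@NP (log2 1.12, SE 0.07, edgeR adjusted p = 4e-12). TGF-beta and BMP genes (6 rose and 6 fell of 18, median 0.07), ERK feedback genes (7 and 5 of 14, 0.18) and Notch genes (2 and 4 of 8, 0.03) gave no shared direction, and their medians or counts changed sign between settings. Inhba, the activin chain, rose from 0.477, 0.608 and 0.425 CPM to 3.56, 2.66 and 3.06 CPM (log2 2.60, SE 0.30, edgeR adjusted p = 1e-07), while Smad3 fell by 0.60 on the log2 scale. Etv4, an ERK-dependent factor, had 106, 111 and 105 CPM with GSNP and 58.6, 57.04 and 60.2 CPM with NP (log2 0.88, SE 0.07, edgeR adjusted p = 2.1e-10), and Ier3 fell by 0.95 on the log2 scale. Of 16 gp130 and STAT3 genes, the pathway of interleukin-6 and LIF, 4 rose and 5 fell (median -0.05). With upper-quartile scaling 0 rose and 9 fell, and without D-gel@NP 3 the rises were 2. The receptors Il6st, Lifr and Osmr all fell, Il6st with 92.5, 90.5 and 93.8 CPM in D-gel@GSNP and 142, 151 and 136 CPM in D-gel@NP (log2 -0.63, SE 0.06, edgeR adjusted p = 3e-09), while Stat3 (log2 -0.08) and Socs3 (log2 0.00) were not called. Of 13 receptor tyrosine kinases 3 rose and 6 fell (median -0.12, which turned to 0.018 without a filter). Egfr had 28.2, 29.6 and 27.2 CPM with GSNP and 56.3, 61.1 and 54.8 CPM with NP (log2 -1.02, SE 0.08, edgeR adjusted p = 2e-10). Met, the receptor for hepatocyte growth factor, had 156, 158 and 165 CPM in D-gel@GSNP and 118, 104 and 110.3 CPM in D-gel@NP (log2 0.53, SE 0.06, edgeR adjusted p = 2.1e-07).

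Adhesion and matrix genes split within families. Of 13 actin and SRF targets 10 rose and 0 fell (median log2 0.35). Actg1, cytoplasmic actin, had 908, 904 and 899 CPM with GSNP and 499, 426 and 417 CPM with NP (log2 1.02, SE 0.05, edgeR adjusted p = 4.9e-13). Cnn2, calponin 2, had 119.5, 113 and 115 CPM in D-gel@GSNP and 45.2, 44.3 and 42.3 CPM in D-gel@NP (log2 1.40, SE 0.07, edgeR adjusted p = 2.2e-13). Of 18 collagen and matrix genes 9 rose and 5 fell (median 0.35). Among the rises were the basement membrane chains Col4a1 and Col4a2, Col4a1 with 339, 326 and 309 CPM with GSNP and 178, 182 and 170.3 CPM with NP (log2 0.88, SE 0.08, edgeR adjusted p = 1.9e-09). Col1a1, of fibrillar collagen I, rose from 1.43, 1.596 and 1.3 CPM to 14.5, 14.99 and 13.8 CPM (log2 3.32, SE 0.39, edgeR adjusted p = 1.5e-07). Col6a1, of beaded-filament collagen VI, went the other way, with 18.6, 18.5 and 17.8 CPM in D-gel@GSNP and 108, 113 and 109 CPM in D-gel@NP (log2 -2.59, SE 0.08, edgeR adjusted p = 3.1e-17). Of 16 integrin and focal adhesion genes 6 rose and 5 fell (median 0.07, and -0.049 with upper-quartile scaling). Itga5, the fibronectin receptor chain, had 63.2, 63.8 and 58.6 CPM with GSNP and 26.7, 29.1 and 27.7 CPM with NP (log2 1.15, SE 0.09, edgeR adjusted p = 3.5e-10). Itga2, a collagen receptor chain, had 28.3, 36 and 29.4 CPM in D-gel@GSNP and 92.05, 102 and 103 CPM in D-gel@NP (log2 -1.66, SE 0.07, edgeR adjusted p = 1.2e-14). The former was higher and the latter lower in each GSNP library. Of 15 matrix proteases and inhibitors 2 rose and 7 fell (median -0.20), among them Mmp10, with 2.33, 1.59 and 1.49 CPM with GSNP and 8.17, 7.91 and 8.32 CPM with NP (log2 -2.18, SE 0.18, edgeR adjusted p = 5.2e-10). Of 12 genes of the mesenchymal transition 2 rose and 4 fell (median -0.12). Snai1 rose by log2 0.65, and Zeb1 and Zeb2 fell by 0.41 and 0.46 on the log2 scale. The largest fall of the list was in Krt19 (log2 -0.73), an epithelial keratin, so the falls were not all in mesenchymal genes. Fibroblast markers moved unevenly beside these lists: 1 of 5 rose and 3 fell, with a summed level of 656.5 to 676.8 CPM in D-gel@GSNP and 1428 to 1491 CPM in D-gel@NP. Most of that was Dcn, decorin, at 651, 659 and 641 CPM in D-gel@GSNP and 1465, 1421 and 1486 CPM in D-gel@NP (log2 -1.16, SE 0.05, edgeR adjusted p = 3.4e-15). The part of these markers in the matrix lists was not tested.

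The markers used to define stem-like glioma cells did not move together. Of 11 tested, 4 rose and 5 fell (median log2 -0.04). Cd44, the hyaluronan receptor, had 544, 543 and 531 CPM with GSNP and 948, 897 and 949.6 CPM with NP, lower with GSNP in every library (log2 -0.79, SE 0.04, edgeR adjusted p = 1e-12). Sox4 had 145, 168 and 148 CPM in D-gel@GSNP and 338, 352 and 350.1 CPM in D-gel@NP (log2 -1.17, SE 0.06, edgeR adjusted p = 2.9e-13), and Sox9 fell as well (log2 -0.38). Nes, the neural stem cell filament nestin, was low but higher with GSNP, with 3.63, 3.26 and 3.24 CPM with GSNP and 1.31, 1.39 and 2 CPM with NP (log2 1.08, SE 0.23, edgeR adjusted p = 0.00033). Aldh1a1 had 1293, 1285 and 1227 CPM in D-gel@GSNP and 863, 951 and 1001 CPM in D-gel@NP (log2 0.43, SE 0.05, edgeR adjusted p = 1.1e-07). Myc had 189, 208 and 177 CPM with GSNP and 208, 234 and 207 CPM with NP, with overlap, and its call (log2 -0.17, SE 0.06, edgeR adjusted p = 0.022) was lost without D-gel@GSNP 1, without D-gel@GSNP 3 or without D-gel@NP 2. Gfap was below 0.31 CPM in all 6 libraries and not called, Tubb3 was too low to test and Olig2 had no count. Of 11 efflux transporters, the pumps that expel Hoechst and drugs, 3 rose and 6 fell (median -0.31). Abcg2, the pump behind the side population, had 51.1, 47.9 and 50.9 CPM in D-gel@GSNP and 55.1, 49.4 and 53.2 CPM in D-gel@NP. The ranges overlapped (log2 -0.07, SE 0.06, edgeR adjusted p = 0.29; 95% interval of the log2 difference -0.19 to 0.04). Abcb1a, P-glycoprotein, had 18.8, 16.6 and 19.4 CPM with GSNP and 45.1, 39.5 and 44.9 CPM with NP (log2 -1.24, SE 0.08, edgeR adjusted p = 9.6e-12). The simple epithelial keratins Krt8 and Krt18 were chosen after their values were seen: Krt8 had 808, 723 and 728 CPM with GSNP and 871, 805 and 866 CPM with NP, and Krt18 had 1069, 997 and 1003 CPM with GSNP and 1086, 1009 and 1123 CPM with NP. Krt8 fell slightly (log2 -0.17) and Krt18 was not called (log2 -0.07). Krt19, another such keratin, had 97.3, 104 and 89.6 CPM with GSNP and 164, 159 and 161 CPM with NP. It was lower in every GSNP library (log2 -0.73, SE 0.08, edgeR adjusted p = 3.9e-08). Krt8 and Krt18 are abundant in these libraries labelled as glioma, in which the glial filament gene Gfap was near 0.

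**Figure D4:**
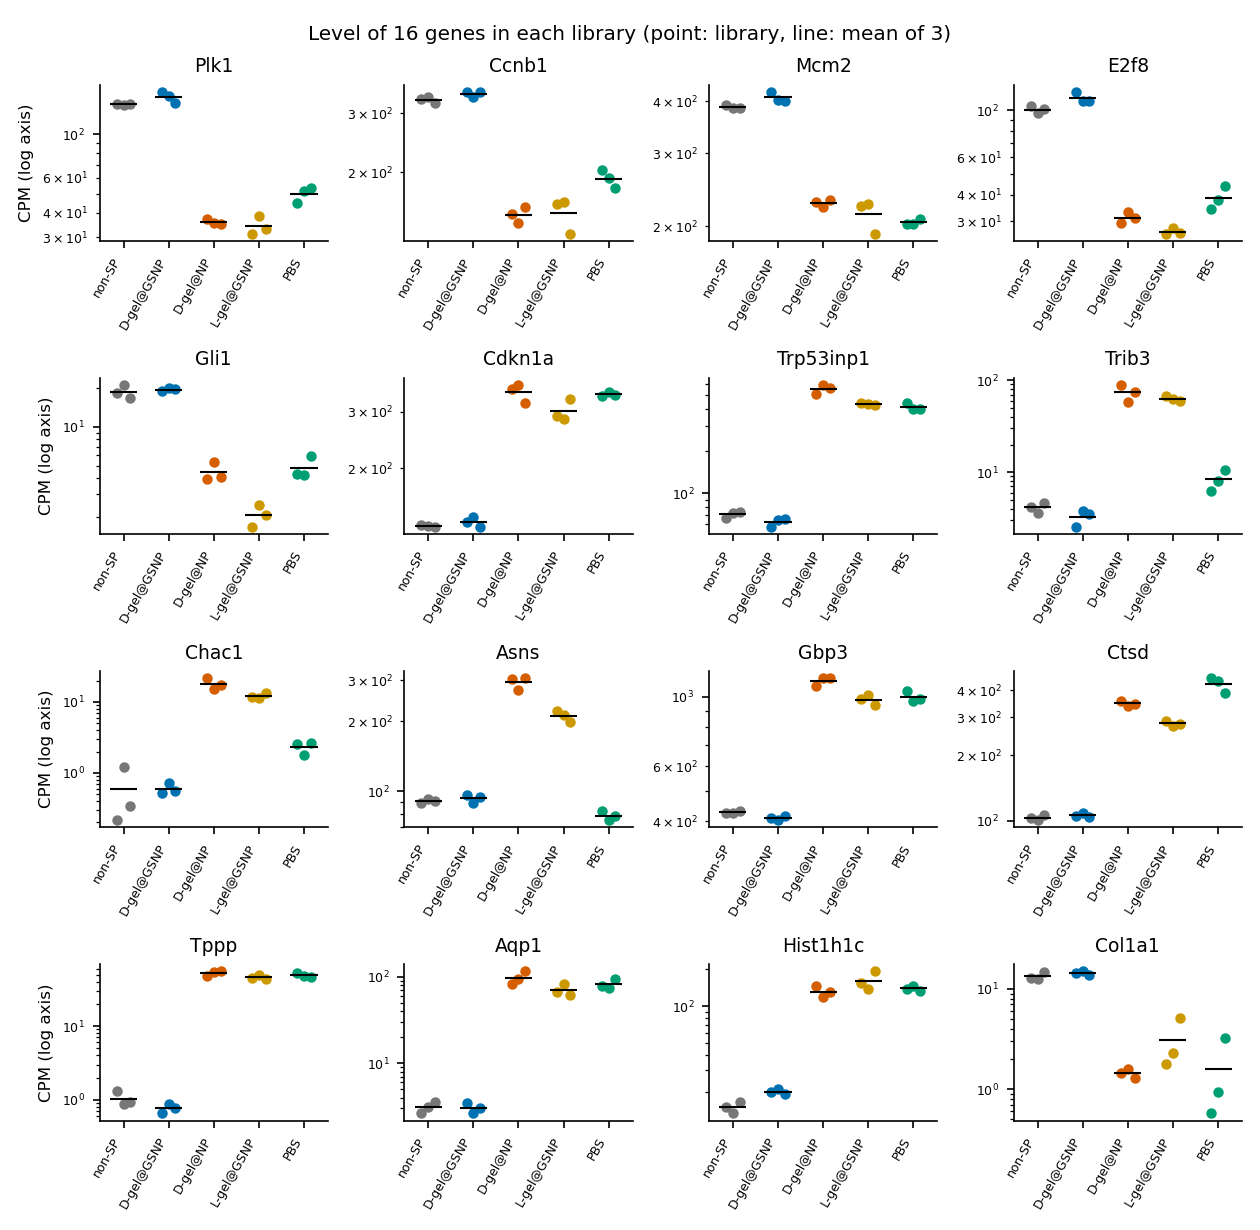
CPM (log axes) of 16 genes in each library of the 5 groups, with the mean of 3 as a line. The D-gel@GSNP points sit beside the non-SP points and away from D-gel@NP in each panel, and Trib3, Chac1 and Asns separate D-gel@NP from PBS.

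The single genes with the largest differences, among those of at least 5 CPM in one group, were mostly falls. Tppp, a tubulin polymerisation-promoting protein, had 0.652, 0.8804 and 0.781 CPM in D-gel@GSNP and 47.8, 53.5 and 55.2 CPM in D-gel@NP. That is 67.01-fold lower with GSNP (log2 -6.07, SE 0.12, edgeR adjusted p = 7.9e-20). Aqp1, a water channel, had 3.47, 2.62 and 3.06 CPM with GSNP and 82.3, 94.8 and 116 CPM with NP (log2 -5.01, SE 0.15, edgeR adjusted p = 4.2e-17). Steap4, a metalloreductase, had 0.2096, 1.12 and 0.2297 CPM in D-gel@GSNP and 31.9, 33.4 and 33.2 CPM in D-gel@NP (log2 -5.87, SE 0.32, edgeR adjusted p = 5.7e-13), and its difference was -7.20 without D-gel@GSNP 2. Atp2a3, a calcium pump of the endoplasmic reticulum, had 0, 0.0749 and 0 CPM with GSNP and 11.7, 8.62 and 10.8 CPM with NP (log2 -8.36, SE 0.38, edgeR adjusted p = 3.7e-14). All its D-gel@GSNP counts were in D-gel@GSNP 2, without which the fitted difference was -11.80. The other members of the 10 largest falls were Tmprss6, Chac1 and Nupr1, described above, and Frmpd4, Hbb-y and Nhlrc1, with log2 differences of -5.02, -5.00 and -4.76 (for Nhlrc1, -5.66 without D-gel@GSNP 2). The 10 largest rises were smaller and included Col1a1, Plk1 and Gli1. Syt13, a synaptotagmin, had 5.52, 5.71 and 5.58 CPM in D-gel@GSNP and 0.477, 0.329 and 0.6999 CPM in D-gel@NP (log2 3.46, SE 0.28, edgeR adjusted p = 3.5e-10). Akap12, a scaffold for protein kinases A and C, had 106, 105 and 99.4 CPM with GSNP and 15.9, 19.7 and 15.7 CPM with NP (log2 2.59, SE 0.08, edgeR adjusted p = 4e-17). Kctd12 had 106, 109 and 111 CPM in D-gel@GSNP and 16.5, 27.4 and 21.6 CPM in D-gel@NP (log2 2.28, SE 0.10, edgeR adjusted p = 1.5e-14). Clec1a, Rflnb, Pkdcc and Padi3 rose by log2 2.73, log2 2.22, log2 2.20 and log2 2.11. By change in CPM, the largest rises outside the mitochondrial genes were in Pabpc1, which binds poly(A) tails, Actb, Rps2, Hsp90ab1 and Igfbp4. Igfbp4, a binder of insulin-like growth factors, had 1607, 1681 and 1612 CPM with GSNP and 771, 773 and 762 CPM with NP (log2 1.09, SE 0.05, edgeR adjusted p = 5e-14). The largest falls were in Eef1a1, Tpt1, Slc38a2, Dcn and Ephx1. Ephx1, microsomal epoxide hydrolase, had 404, 400.1 and 373 CPM in D-gel@GSNP and 1202, 1226 and 1229 CPM in D-gel@NP (log2 -1.64, SE 0.04, edgeR adjusted p = 5.7e-18).

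Within the D gel, some genes were counted with 1 load alone. No gene had 10 or more counts in each D-gel@GSNP library and none in D-gel@NP, while 11 had 10 or more in each D-gel@NP library and 0 in D-gel@GSNP. With a floor of 3 counts over the D-gel@GSNP group, Ighm (277 counts in D-gel@NP) was at least 134.2-fold lower, Cyp2f2 (251 counts) at least 121.6-fold and Aoc1 (181 counts) at least 87.68-fold. Low counts were even more often than odd (62.32 to 66.44% of counts of 1 to 20). If both reads of a pair were counted, 3 counts are fewer fragments and these bounds are too high, which was not tested. Among the 3, Ighm had 0 counts in non-SP and 103 in PBS. In L-gel@GSNP, which has the same load code as D-gel@GSNP, Ighm had 1201 counts, Cyp2f2 271 and Aoc1 154. Markers of other cell types mostly fell as well. Astrocyte markers fell in 5 of 7 cases and rose in 0. Their summed level was 139.8 to 145.9 CPM in D-gel@GSNP and 246.2 to 295.6 CPM in D-gel@NP, most of it Apoe and Gja1. Gja1, at 109.4 to 114.2 CPM with GSNP and 88 to 124.8 CPM with NP, was not called (log2 0.04), and neither was Gfap. Apoe, the lipid carrier, had 29.1, 26.5 and 25.7 CPM with GSNP and 135, 143 and 136 CPM with NP (log2 -2.35, SE 0.07, edgeR adjusted p = 4.2e-17). The 2 neuron markers tested, Map2 and Syt1, fell, although the call of Syt1 was lost in 7 of 15 other settings. The summed level of the neuron list (0.466 to 0.781 and 4.561 to 4.591 CPM) was mostly Map2. Map2 was at 0.419 to 0.656 CPM with GSNP and 4.3 to 4.352 CPM with NP, and Syt1 at no more than 0.225 CPM. The defining markers Dcx, Olig2, Emcn and Thy1 had no count in any of the 6 libraries. Of 3 endothelial markers Vwf fell and Pecam1 and Kdr were not called (summed 1.836 to 3.236 and 9.824 to 11.98 CPM). Of 4 markers of the oligodendrocyte lineage 2 rose, Mbp and Pdgfra (summed 37.59 to 42.15 and 18.72 to 34.59 CPM).

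The comparison is within the D gel. In L-gel@GSNP, which has the same load code, the summed level of the ribosome biogenesis list was 5719 to 6410 CPM, against 8581 to 9158 CPM in D-gel@GSNP and 6244 to 6906 CPM in D-gel@NP. That of the proteasome was 2858 to 3130 CPM, against 4149 to 4271 and 3005 to 3204 CPM. For mitosis it was 2648 to 3122 CPM, against 5103 to 5310 and 2811 to 2856 CPM, and for p53 targets 3478 to 3612 CPM, against 1967 to 2003 and 4034 to 4410 CPM. The ATF4 targets summed to 2638 to 2760 CPM in L-gel@GSNP, between 1901 to 1990 CPM in D-gel@GSNP and 3243 to 3549 CPM in D-gel@NP. In these 5 lists no L-gel@GSNP library was within the range of D-gel@GSNP.

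To place the loads, each group was also set beside PBS. Both comparisons use the same 3 PBS libraries, so they are not independent. D-gel@GSNP minus PBS had 9621 called genes (55%), and D-gel@NP minus PBS had 5327 (30.4%). The genes of mitosis had a median log2 difference of 0.64 for D-gel@GSNP and -0.36 for D-gel@NP, and those of replication 0.56 and -0.06. For p53 targets the medians were -0.80 and 0.03, for histone genes -3.17 and -0.20, and for interferon genes -0.78 and 0.14. In these lists, replication included, D-gel@NP was nearer to PBS than D-gel@GSNP was. The medians of the ATF4 targets were the other way round, at -0.21 for D-gel@GSNP and 1.36 for D-gel@NP. Of 21 members, 18 were called above PBS and 0 below with NP, and 8 above and 11 below with GSNP. The small GSNP median thus holds opposed changes, and not every member was nearer to PBS with GSNP. Ddit3 differed from PBS by log2 -1.62 with GSNP and by log2 0.18 with NP. Aminoacyl-tRNA synthetases had medians of 0.20 and 0.67. Trib3 was at 8.33 ± 2.24 CPM (SD, n = 3) in PBS, between the loads, and Chac1 at 2.34 ± 0.456 CPM (SD, n = 3). Asns was at 78.5 ± 3.404 CPM (SD, n = 3) in PBS, below both. Some of the largest falls were also differences of D-gel@NP from PBS: in PBS Tmprss6 was at 0.365 ± 0.2803 CPM (SD, n = 3), Atp2a3 at 0.446 ± 0.0352 CPM (SD, n = 3) and Steap4 at 6.298 ± 2.77 CPM (SD, n = 3), each well below its D-gel@NP values. Tppp and Aqp1 were at 48.9 ± 2.58 CPM (SD, n = 3) and 81.8 ± 10.4 CPM (SD, n = 3) in PBS, near their D-gel@NP values. Against non-SP, D-gel@GSNP had 73 called genes (0.417%), 18 higher and 55 lower, and 1581 at an unadjusted p under 0.05. That count depended on single libraries: it was 6, 9 and 140 without D-gel@GSNP 1, 2 and 3, and 10, 9 and 8 without non-SP 1, 2 and 3.

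**Figure D5:**
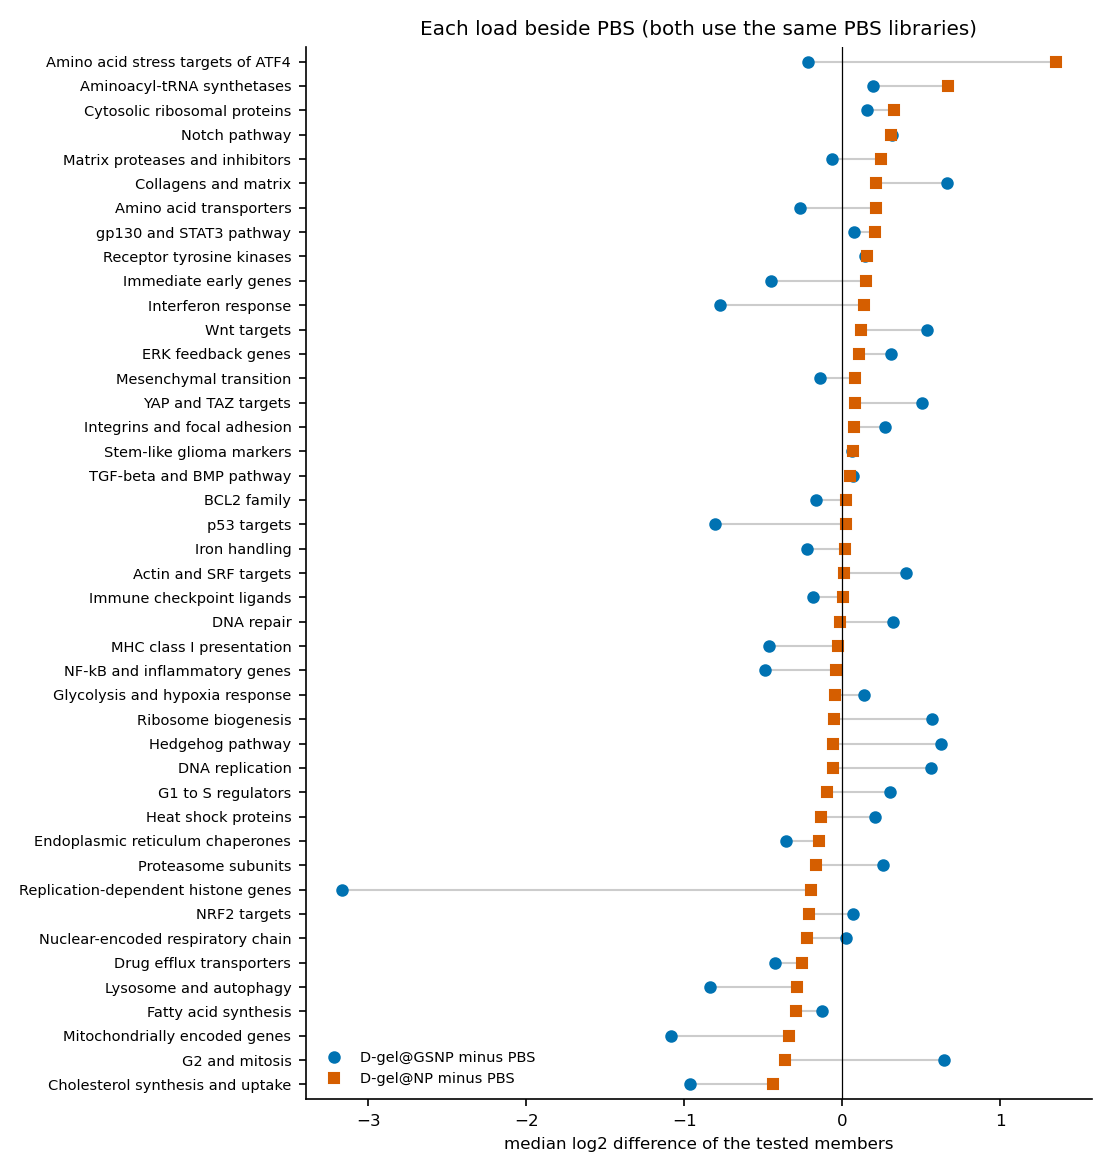
Median log2 difference from PBS of the tested members of each list, for D-gel@GSNP (circles) and D-gel@NP (squares). Both series use the same PBS libraries; ATF4 targets lie far to the right for D-gel@NP (1.36) and histone genes far to the left for D-gel@GSNP (-3.17).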

How the data were processed

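RNA from 15 libraries, 3 in each of 5 groups, was sequenced as read pairs after TRIzol extraction, per the labels' protocols. The deposited counts are reads per gene, and the deposited FPKM were computed by the authors from the same counts: FPKM equalled count over length and total in all 34259 genes within a relative tolerance of 0.0001. Per the submitters' processing notes, fastp 0.22.0, HISAT2 2.1.0, featureCounts, DESeq2 and the GRCm39 build were used; the annotation release, strand setting and treatment of reads with several matches are not given in the sources used here. Among counts of 1 to 20, 62.32 to 66.44% were even in each library, which bears on how far 1 count is 1 fragment; no value was altered for it.

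Counts were tested with edgeR 4.0.16 in R 4.3.3 (TMM factors, filterByExpr, quasi-likelihood test, 1 fit of all 15 libraries with 10 residual degrees of freedom, Benjamini-Hochberg adjusted p under 0.05 over 17497 genes). The biological coefficient of variation was 8.06%. SE is the log2 difference over the root of the F statistic. CPM use the TMM factors. The alternatives used DESeq2 1.42.0 and limma 3.58.1 on log2(FPKM + 1) and log2(FPKM + 0.1). The code was tested on simulated data with far fewer changed genes than were called here. That test does not cover the scaling when most genes differ. Gene symbols came from GENCODE M21 for 32434 genes, and 1825 had none. Promoters came from RefSeq on GRCm38.p6, for names and sequence only, since the files carry no coordinates.

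The 43 gene lists and 6 marker lists, of textbook members, were chosen with earlier results of these data known, and so were the comparison and the rules. Lists have no test of their own. The named genes are a panel of stem cell and efflux genes, the 10 largest rises and falls by log2 among called genes with at least 5 CPM and no overlap, the 5 largest by CPM, as many as 4 members of lowest adjusted p, and any changed 2-fold, of each list with at least 25% called, the most abundant markers, and genes with no count in 1 group and at least 10 in each library of the other.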

Additional observations from a re-analysis of the deposited data

How the results depend on the processing

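Over 17 other settings, 4671 values of the named genes kept their direction and side of the threshold, 57 lost the call, 4 gained it and 0 reversed. Calls of Gapdh, Ifit3, Notch3, Syt1, Abcb4, Hist1h4d, Myc, Jag1, Rbpj and Nt5e were among those lost under at least 1 setting, and Abcg2 gained one under 4. Genes called higher and lower were 4942 and 5266 with RLE factors, 4979 and 5315 with DESeq2, 4901 and 4906 with only the 6 libraries, and 4619 to 4827 and 4827 to 5124 with 1 library left out. On log2(FPKM + 1) limma gave 206 genes at least 2-fold higher and 507 lower, and 208 and 512 without a filter; the added 1 lowers the fold of low genes by construction. Genes called between D-gel@GSNP and non-SP were 239 with no filter, 282 with only the 6 libraries, 196 with DESeq2, 25 and 11 with limma on log2(FPKM + 1) with and without the filter, 36 on log2(FPKM + 0.1), and 6 to 140 with 1 library left out; the cause was not tested. The direction of a list changed only for the TGF-beta, ERK, Notch, integrin and receptor kinase lists and the oligodendrocyte and endothelial markers. List counts that moved by over 1.5 times under upper-quartile factors included the falls of the mesenchymal list (7), the rises of ERK genes (4), Notch genes (0) and gp130 genes (0).

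Replicate numbers did not pair the samples: deviations of same-numbered libraries correlated at 0.008, -0.003 and 0.004. With a replicate block 5051 genes were higher and 5142 lower between the loads, and 34 differed between D-gel@GSNP and non-SP.

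Depth limits low genes most. D-gel@NP 1 has the fewest counts, differences of genes with a handful of counts rest on single libraries, and a gene without counts in D-gel@GSNP is known only to lie under the floor of 3 counts over the group, which covers counting error alone. Reads of 1 library are not independent molecules.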
